A study of Mus musculus with 6 samples.

Results

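The complement genes described here are 9 in number of 39179 genes in the deposited table, taken by gene symbol. They are 7 activating components (C1ra, C1rb, C1s, C2, C3, C4b and Cfb) and 2 inhibitors (Serping1 and Cd55). They were measured by RNA sequencing in B16F10.9 cells, a melanoma line that arose in C57BL/6 mice. The untreated group has 3 libraries of cells that received no agent, and the IFN-gamma group has 3 libraries of cells exposed to recombinant mouse IFN-gamma over 24 h, at a labelled 50 µg/ml. The unit of that dose is in doubt, since ng/ml is the common range in culture. All cells were seeded at 1000000 per culture. The labels do not say how separate these cultures were, so the spread between libraries may be technical.

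Expression is given in FPKM, a fragment count divided by the length of the transcript and by library size. The authors reduced the 3 libraries of each group to 1 FPKM value per gene. No SD or n can therefore be given for any level, the depth of the libraries is unknown, and each level here is the authors' group value. Rises and falls are those with q under 0.05 in the authors' deposited table. That q was given for 17021 tested genes, each with at least 0.106 FPKM in its higher group.

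Complement is a cascade of plasma proteins that marks and perforates cells and recruits leukocytes. In its classical pathway the recognition protein C1q carries the proteases C1r and C1s. C1r activates C1s, C1s cleaves C4 and C2, and the cleaved C4 and C2 together form a convertase that splits C3, the central component. Factor B, the product of Cfb, supplies the protease of the corresponding convertase of the alternative pathway. Serping1 encodes the C1 inhibitor, which inactivates C1r and C1s, and Cd55 encodes decay accelerating factor, which takes convertases apart on the cell surface. The liver makes most of these proteins for plasma, and many other cell types make some of them locally.

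After IFN-gamma the transcripts of C1ra, C1s, C2, C4b and Serping1 rose, and no member fell. C2 was the most abundant member in both groups, while C4b and Serping1 went from near 0 to 97.9 and 24.0 FPKM. C3 stayed at the low edge of measurement, Cfb was not called, and C1rb and Cd55 were listed near 0 in both groups. Of the 9 members 7 were tested, 5 rose, 0 fell and 2 were not called. Over all tested genes 23.4% rose and 20.9% fell, 44.4% in all. The same 5 members passed every stricter rule tried, for which the share of all genes that rose was 19.5% at q under 0.01, 9.69% with a change of at least 2-fold, 27.9% among genes of at least 1 FPKM and 29.1% among genes of at least 5 FPKM. The shares that fell were 17.2%, 8.88%, 25.3% and 28%. Serping1 reached the tested level through the IFN-gamma group alone, so its inclusion depended on a difference, whereas the other 6 tested members also stood above 0.106 FPKM in untreated cells. C4b and Serping1 likewise passed 1 FPKM, and C1ra, C1s, C4b and Serping1 passed 5 FPKM, through the IFN-gamma group alone. Those FPKM rules therefore could not remove them, and the counts are descriptive.

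**Figure D1:**
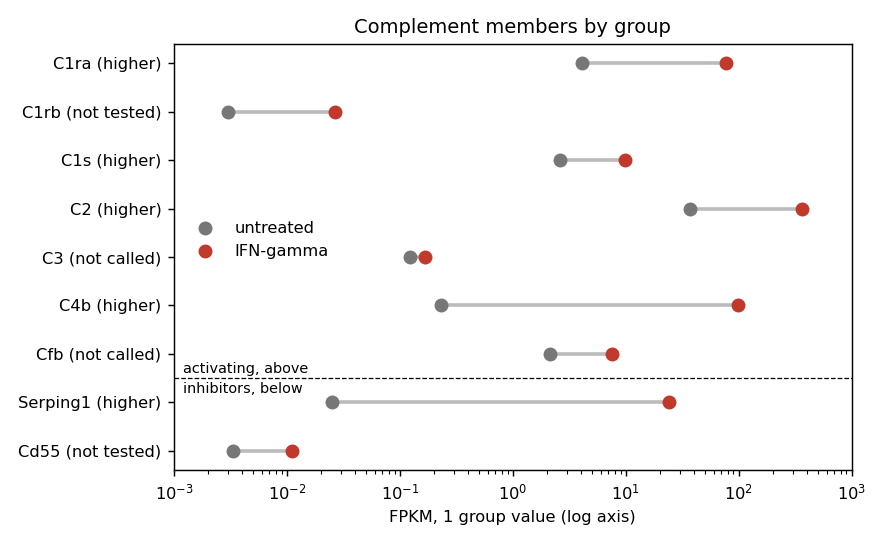
FPKM (log axis) of the 9 complement members in untreated cells (grey) and after IFN-gamma (red), with 1 group value by the authors per point and no error available. The call by the authors' q-value stands beside each name. C2 ran from 36.9 to 364 FPKM, C4b from 0.231 to 97.9 FPKM and Serping1 from 0.0248 to 24.0 FPKM.

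Among the proteases of the C1 complex, C1ra rose from 4.12 FPKM in untreated cells to 77.3 FPKM after IFN-gamma, an 18.7-fold change (q = 0.000187 in the authors' deposited table). This q is the lowest value the table holds and is shared by many genes. C1s, the protease activated by C1r, rose from 2.62 to 9.83 FPKM (3.76-fold, q = 0.000187 in the authors' deposited table). C1ra thus stood 1.58 times above C1s in untreated cells and 7.87 times above it after IFN-gamma. C1rb, a second C1r gene of the mouse, was listed at 0.00300 and 0.0267 FPKM and was not tested. C1ra lies on chromosome 6 (124512405 to 124523443, plus strand) and C1s on the same chromosome (124530345 to 124542359, minus strand, GRCm38). The gap between them is 6.90 kb. C1rb follows 27.9 kb beyond C1s, at 124570294 to 124581171 on the plus strand.

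A pair of limits bears on these 3 genes. An antisense gene, Gm16567, overlaps C1s and was listed at 3.11 and 11.4 FPKM (q = 0.000187 in the authors' deposited table), a 3.65-fold rise close to that of C1s itself. The library kit does not mark strand, so reads of the 2 genes cannot be told apart. Their summed FPKM was 5.73 untreated and 21.2 after IFN-gamma. C1ra stood at 0.720 times that sum in untreated cells and 3.65 times above it after IFN-gamma, so the order of C1ra and C1s in untreated cells depends on how reads were assigned. The transcripts of C1ra and C1rb were 98.0% identical over 2429 aligned bases, so reads may be divided between them by the counting. Their summed FPKM rose 18.7-fold, from 4.13 to 77.3 FPKM. The same holds for C1s and its near-copy C1s2, the next gene after C1rb, with 95.9% identity over 2661 aligned bases. C1s2 was listed at 0.00646 and 0.0116 FPKM and was not tested.

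The promoter windows of C1ra and C1rb are shown because these near-copies share one match to an interferon-response motif while only C1ra was well detected. The windows are from RefSeq (GRCm38.p6) and run from 250 bases before to 50 bases after the annotated start. Capitals mark the match to the gamma-activated site TTCNNNGAA, which reads the same on both strands. C1ra, chr6:124512371-124512670, plus strand, and C1rb, chr6:124570180-124570479, plus strand, read:
C1ra: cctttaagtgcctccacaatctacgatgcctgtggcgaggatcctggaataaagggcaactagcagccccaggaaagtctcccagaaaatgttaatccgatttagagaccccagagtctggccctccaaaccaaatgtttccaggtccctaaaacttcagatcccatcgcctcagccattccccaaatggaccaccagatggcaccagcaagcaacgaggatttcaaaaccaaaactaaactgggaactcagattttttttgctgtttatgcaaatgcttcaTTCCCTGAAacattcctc
C1rb: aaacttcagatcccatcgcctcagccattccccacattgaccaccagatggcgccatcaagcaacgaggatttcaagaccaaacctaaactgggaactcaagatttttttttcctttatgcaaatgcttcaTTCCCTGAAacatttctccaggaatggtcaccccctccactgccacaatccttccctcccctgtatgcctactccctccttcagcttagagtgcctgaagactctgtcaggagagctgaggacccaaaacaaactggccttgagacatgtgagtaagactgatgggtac

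The matching 9 bases, TTCCCTGAA, are identical in both windows. They lie at base 33 after the annotated start in C1ra and 119 bases before it in C1rb, because RefSeq places the 2 starts at different points of the shared stretch. The gene starts given above are from GENCODE and lie upstream of both RefSeq starts, so these positions depend on the annotation. Bases 152 to 300 of the C1ra window align with bases 1 to 149 of the C1rb window, with 93.9% identity. Among all 32851 promoter windows supplied, 8.30% hold this motif, and 3.44% hold the core of the interferon-stimulated response element, searched on both strands. Counted by gene, as the members are below, the shares are 9.55% and 3.99% of 27025 genes. The supplied set holds windows for 5 of the 9 members (C1ra, C1rb, C1s, C3 and Cd55). The gamma-activated site was found in 2 of these members and the response element core in 0. A match describes letters in a window and not binding. Irf1, a factor that binds the response element, rose from 10.2 to 482 FPKM.

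The genes of the classical convertase both rose. C2 went from 36.9 to 364 FPKM (9.87-fold, q = 0.000187 in the authors' deposited table). It moved from rank 2962 to rank 254 among the tested genes by level. C4b went from 0.231 to 97.9 FPKM, a log2 ratio of 8.73 (q = 0.000187 in the authors' deposited table), and from rank 14544 to rank 1042. C2 stood 160 times above C4b in untreated cells and 3.72 times above it after IFN-gamma. C2 alone made up 80.0% of the summed FPKM of the 7 activating members in untreated cells and 65.4% after IFN-gamma. C3, the substrate of the convertase, was at 0.123 FPKM untreated and 0.166 FPKM after IFN-gamma (q = 0.754 in the authors' deposited table). After IFN-gamma C4b thus stood 590 times above C3, against 1.87 times before.

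Cfb was at 2.13 FPKM in untreated cells and 7.63 FPKM after IFN-gamma, a ratio of 3.59 that was not called (p = 0.0305, q = 0.0660 in the authors' deposited table). Its ratio was close to that of C1s, which was called. The test score of Cfb in the authors' deposited table was 0.88, against 3.25 for C1s. Cfb shares its locus with C2 in the authors' table. Cfb lies at 34856374 to 34862518 and C2 at 34862604 to 34898265 on chromosome 17, both on the minus strand, and 85 bases separate them. Another annotated gene, Gm20547, spans parts of both (34856412 to 34882042) and was listed at 0.487 and 1.56 FPKM without a call. The split of reads among these 3 genes rests on the authors' assignment. Their summed FPKM rose 9.45-fold, from 39.5 to 373 FPKM, most of it from C2.

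C4b lies on the same chromosome at 34728380 to 34743882 on the minus strand. C4a, a near-copy known in the mouse as sex-limited protein, lies 65.2 kb from it. C4a rose from 0.731 to 2.91 FPKM (q = 0.000187 in the authors' deposited table). It was thus above C4b in untreated cells, where C4b stood at 0.316 times its level, and below it after IFN-gamma, where C4b stood 33.7 times higher. Transcripts of both genes were 96.1% identical over 5367 aligned bases, so single values are uncertain. Their summed FPKM rose 105-fold, from 0.962 to 101 FPKM, against 424-fold for C4b alone.

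**Figure D2:**
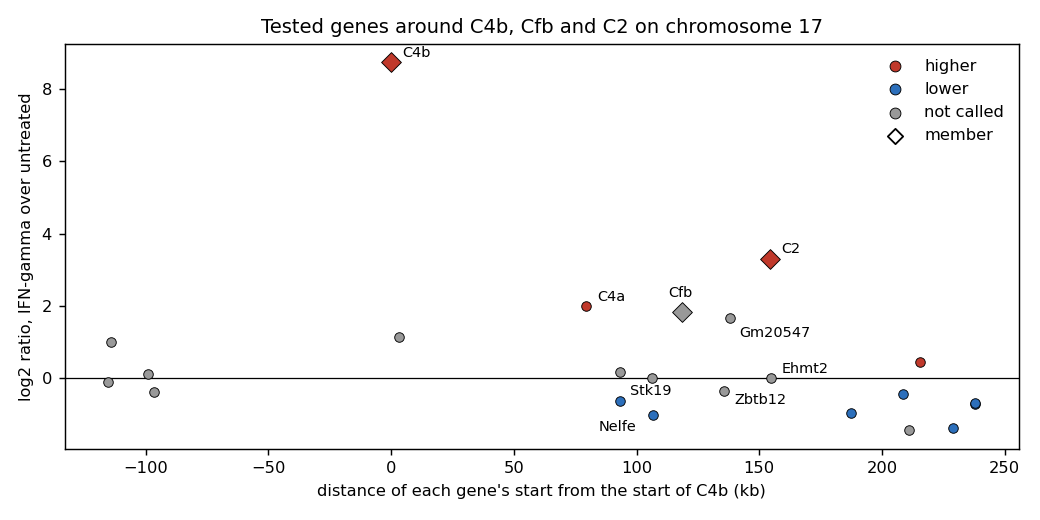
Log2 ratio of FPKM (IFN-gamma over untreated) of each tested gene within 100 kb of the block from C4b to C2, by the distance of its start from the start of C4b in kb. Diamonds are members and colours give the authors' call. C4b at 8.73 and C2 at 3.30 stand above their neighbours, of which the highest, C4a, is at 1.99.

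The rises on chromosome 17 were not shared by the whole neighbourhood. Of 20 other tested genes within 100 kb of C4b, C2 or Cfb, 2 rose, 7 fell and 11 were not called, with a median log2 ratio of -0.23. Over all tested genes 23.4% rose and 20.9% fell, and with 20 genes nothing particular to the neighbourhood is read from its count. The risen genes, chosen after their values were seen, were C4a and Hspa1b, the latter from 0.917 to 1.25 FPKM. Nelfe, whose end lies 1 base from Cfb, fell from 50.7 to 25.4 FPKM. Ehmt2, which begins 203 bases beyond C2, was at 75.1 and 75.6 FPKM without a call, and Zbtb12, inside the C2 locus on the other strand, was at 9.33 and 7.27 FPKM without a call. On chromosome 6, of 4 other tested genes within 100 kb of C1ra, 2 rose (C1rl and Gm16567), 1 fell (Pex5, from 39.7 to 30.5 FPKM) and 1 was not called (Clstn3). C1rl, a gene for a C1r-like protease 1.76 kb before C1ra, rose from 5.31 to 16.1 FPKM (3.03-fold). Next to C3, Gpr108 rose from 26.3 to 41.9 FPKM and Tnfsf14 was not tested. Next to C4b lie the pseudogenes Stk19-ps1, which was not called, and Cyp21a2-ps, which was not tested.

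The inhibitors differed from each other. Serping1 rose from 0.0248 to 24.0 FPKM (q = 0.00146 in the authors' deposited table), from rank 16633 to rank 4195 by level. Its log2 ratio of 9.91 rests on an untreated value near 0 and is 7.59 with 0.1 FPKM added to both groups and 4.61 with 1 FPKM added. Serping1 lies on chromosome 2 (84765387 to 84775444, minus strand). Its neighbours there are Ube2l6, an ISG15-conjugating enzyme 23.4 kb away, which rose from 11.9 to 354 FPKM, and Gm19426, which fell from 2.33 to 1.52 FPKM. Cd55 was listed at 0.00335 FPKM untreated and 0.0110 FPKM after IFN-gamma and was not tested. It lies on chromosome 1 (130439027 to 130462744, minus strand), and its near-copy Cd55b was listed at 0 and 0.0166 FPKM, also not tested. Its neighbours Gm15674 and Zp3r and the overlapping antisense gene Gm16083 were not tested either.

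**Figure D3:**
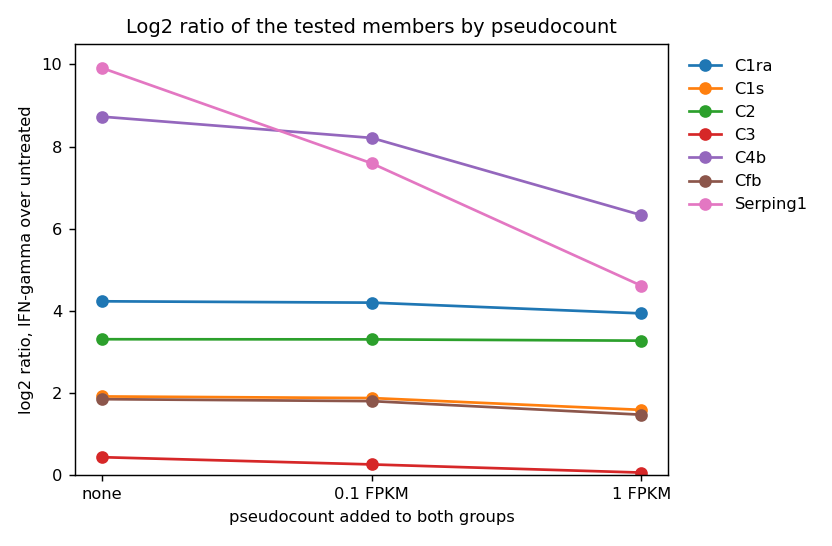
Log2 ratio of the 7 tested members with no pseudocount, with 0.1 FPKM and with 1 FPKM added to both groups. The lines of Serping1 and C4b cross: Serping1 is higher without a pseudocount (9.91 against 8.73) and lower with 1 FPKM added (4.61 against 6.33), while C1ra goes only from 4.23 to 3.93.

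Set against each other, the balance of activating members and inhibitors depends on which inhibitors are counted. The 7 activating members summed to 46.1 FPKM in untreated cells and 557 FPKM after IFN-gamma. Serping1 and Cd55 summed to 0.0282 and 24.0 FPKM, so the ratio of activating members to these inhibitors went from 1636 to 23.2. Its untreated value rests on Serping1 near 0. When the 17 further inhibitors listed below were added, the inhibitors summed to 36.4 FPKM untreated and 70.8 FPKM after IFN-gamma. The ratio then went the other way, from 1.27 to 7.87. Only the inhibitor side was widened. The further classical, lectin, alternative and terminal lists were left out of the activating side. Untreated and after IFN-gamma they summed to 6.06 and 19.0, 18.0 and 14.4, 2.23 and 2.13, and 2.95 and 3.44 FPKM. Within the C1 step, C1ra stood 166 times above Serping1 in untreated cells and 3.23 times above it after IFN-gamma. C1s stood 105 times above Serping1 before and at 0.410 times its level after. With Gm16567 added to C1s these values were 231 and 0.885. The tested activating members had a median log2 ratio of 2.61, against 0.04 over all tested genes. Serping1, the only tested inhibitor member, was at 9.91. These comparisons have no replicate check.

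Most inhibitors on the membrane outside the members were low or near 0, and Cr1l was the only one above Serping1 after IFN-gamma. Cr1l, which encodes Crry, the main membrane regulator of C3 convertases in rodents, rose from 21.6 to 29.6 FPKM (1.37-fold, q = 0.00101 in the authors' deposited table). Cd59a, whose product blocks the membrane attack complex, was at 10.8 and 8.68 FPKM and was not called. Cr1l and Cd59a together gave 88.8% of the summed FPKM of all listed inhibitors in untreated cells and 54.1% after IFN-gamma. Cd46, a membrane cofactor for the cleavage of C3b, rose from 0.564 to 1.14 FPKM. Of 9 membrane inhibitors 5 were tested, 2 rose, 0 fell and 3 were not called. Among 8 soluble inhibitors 1 was tested: Clu, the gene of clusterin, which binds terminal components, rose from 2.25 to 6.32 FPKM (2.81-fold, q = 0.000187 in the authors' deposited table). The other 7 soluble inhibitors, with factor H and factor I among them, stayed at or below 0.0662 FPKM. The shares over all tested genes were 23.4% risen and 20.9% fallen, and lists this short are not read against them.

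The remaining complement genes were mostly near 0. Of 52 further complement genes in 7 lists by role, 35 were not tested and stood at or below 0.0810 FPKM in both groups. Of the 17 tested, 5 rose, 3 fell and 9 were not called, with a median log2 ratio of 0.07, against 0.04 over all tested genes. Of all tested genes 23.4% rose and 20.9% fell, shares near those of these 17 genes. The 3 chains of C1q, the recognition protein, stood at or below 0.0199 FPKM in both groups. Of 9 lectin pathway genes 3 were tested and 1 fell: Masp1, which encodes proteases of that pathway, went from 17.2 to 13.9 FPKM (q = 0.0206 in the authors' deposited table). Cfp, the gene of properdin, was at 2.23 and 2.13 FPKM without a call, and Cfd was listed at 0 in both groups. Of 7 terminal pathway genes the only one tested was C8g, at 2.79 and 3.34 FPKM without a call. Of 11 receptor genes 4 were tested and 2 fell. These were Itgb2, the beta chain of complement receptors on leukocytes, from 1.69 to 0.816 FPKM, and Itgam, its alpha chain partner. Itgam went from 0.141 to 0.0130 FPKM, lies outside the naming rule and was picked with its values in view. Itgam reached the tested level through the untreated group alone, so its inclusion depended on a difference. The C1q-binding proteins Calr (663 and 702 FPKM) and C1qbp (170 and 179 FPKM) were not called.

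**Figure D4:**
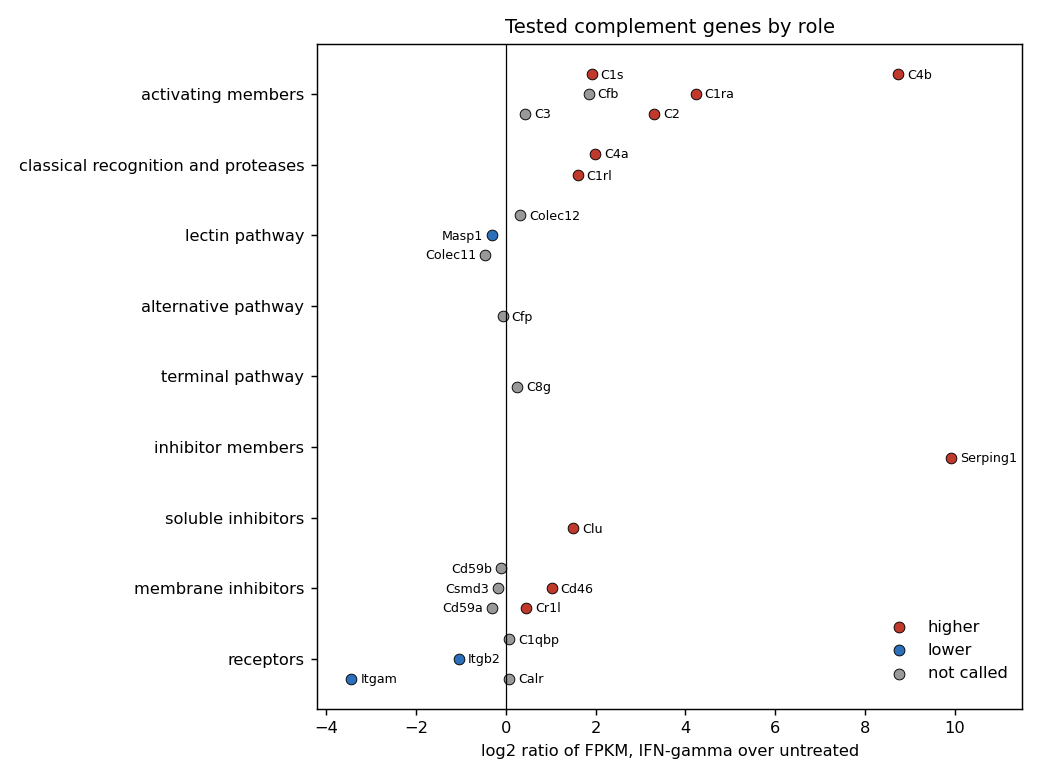
Log2 ratio of FPKM (IFN-gamma over untreated) of each tested complement gene, by role, with the authors' call in colour (red higher, blue lower, grey not called). Serping1 at 9.91 and C4b at 8.73 lie to the right, the other risen genes lie between 0.46 and 4.23, and the 3 fallen genes are Masp1, Itgb2 and Itgam.

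For each risen member, the tested gene nearest in the plane of log2 FPKM in both groups was taken. This likeness is over 2 group values only, and since the same values choose the gene, a similar rise follows from the choice. For C1ra it was Rsad2 (3.37 and 73.6 FPKM, distance 0.30), for C1s Plscr4 (2.64 and 9.54 FPKM, distance 0.04) and for C4b Ifi203 (0.276 and 91.7 FPKM, distance 0.27). For C2 it was Emb (51.9 and 268 FPKM, distance 0.66) and for Serping1 Olfr56 (0.0388 and 18.3 FPKM, distance 0.75).

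**Figure D5:**
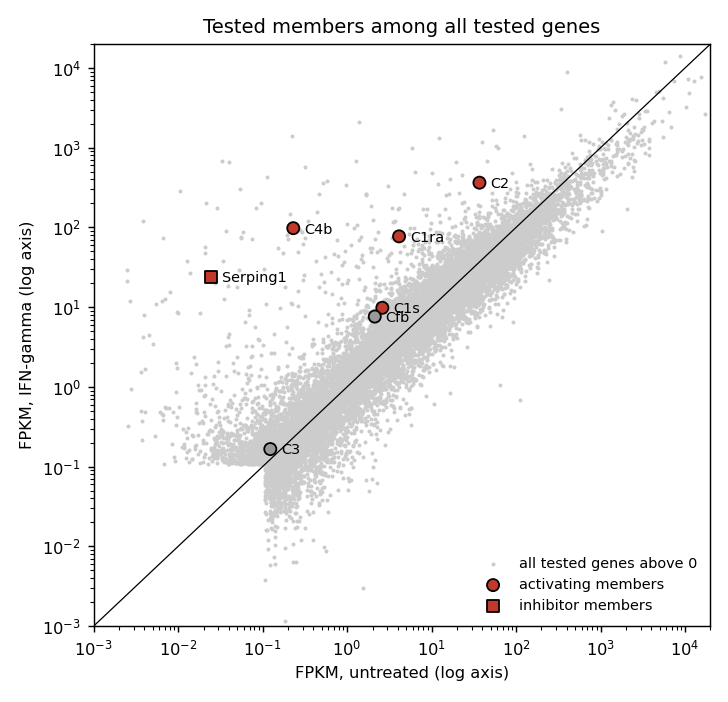
FPKM after IFN-gamma against FPKM in untreated cells (log axes) for all tested genes above 0 in both groups (light grey) and the 7 tested members, red where called higher and dark grey where not called, circles for activating members and a square for Serping1. The line marks equal values. C4b, C1ra, C2 and Serping1 lie above the main cloud, and C3 lies at its lower end.

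Markers of other cell types were at low levels in both groups. All 7 melanocyte markers were at or above 78.7 FPKM in both groups. The 8 macrophage markers, cells that also make complement, summed to 4.49 FPKM untreated and 5.07 FPKM after IFN-gamma, with Ptprc, Adgre1, Csf1r, Fcgr1 and Mrc1 at or below 0.0954 FPKM. Of these 8 markers 1 rose, Cd68, from 1.92 to 2.85 FPKM. Lyz2 (1.65 and 1.30 FPKM) and Cd14 (0.753 and 0.878 FPKM) were tested and not called. The 6 fibroblast markers summed to 1.15 and 1.59 FPKM, with 1 risen and 2 fallen. Lum rose from 0.0664 to 1.29 FPKM and made up most of the sum after IFN-gamma. Col1a2 fell from 0.709 to 0.131 FPKM and Pdgfra from 0.149 to 0.0175 FPKM. Lum reached the tested level through the IFN-gamma group alone, and Pdgfra through the untreated group alone. The 5 endothelial markers summed to 0.180 and 0.155 FPKM. The shares over all tested genes were 23.4% risen and 20.9% fallen. In bulk libraries a change in the share of cells and a change per cell cannot be told apart.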

How the data were processed

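RNA of B16F10.9 cells was sequenced as 6 libraries, 3 per group, prepared, per the labels' protocols, with TruSeq RNA V2 reagents. The submitters' processing notes name TopHat2 (2.0.11), Cuffdiff, Cufflinks (2.2.1) and the GRCm38 build. Annotation release and settings were not given in the sources used here. Per gene, the authors' deposited table holds 1 FPKM value per group, a log2 ratio, a test score, p-values and q-values, per the file headers. The header calls the contrast infected versus uninfected, but each row names B16 and IFN, and the rows were followed. Shorter sheets were not used.

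Because each group had 1 value, no test was refitted, and calls are the authors' q-values under 0.05. Ratios were recomputed from FPKM without a pseudocount. The members, lists and motifs were chosen with earlier results of these data known. Further complement genes were named where called with at least 1 FPKM in either group, or uncalled with at least 5 FPKM; the others named serve a count or a range. For each member its nearest neighbours and genes of the same locus were named, apart from microRNA genes listed at 0 FPKM in both groups. For each called member the most alike tested gene was named. A gene picked by the naming rule is not reported here. Coordinates, transcript lengths and transcript sequences were from GENCODE M21 (GRCm38), matched by Ensembl ID. C1s is C1s1 there, and Cd55b and C1s2 stand in the table under older symbols (Daf2, Gm5077). Identity was taken over transcripts, longest per gene, in place of the planned proteins. Length bins and the search for the gamma-activated site were tested on simulated data, and the search for the response element core was not. Python 3.11.15, pandas 2.3.3, biopython 1.88 and matplotlib 3.10.9 were used.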

Additional observations from a re-analysis of the deposited data

How the results depend on the processing

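No paired analysis was possible because the deposited table has 1 value per group and no value per library, and leaving out a replicate could not be run for the same reason. The 7 tested members kept a log2 ratio above 0 after subtraction of the median of tested genes and of genes of similar length; a pseudocount cannot turn the direction. The count of 5 risen members was the same at q under 0.01, with a change of at least 2-fold, and with at least 1 or 5 FPKM. The FPKM rules are no check of this count. C1ra, C1s, C4b and Serping1 reached 5 FPKM, and C4b and Serping1 reached 1 FPKM, through the IFN-gamma group alone. For medians and counts, a shift of over 1.5 times counts as a move, since no spread is available. The log2 ratio of C4b went from 8.73 to 8.21 and 6.33 with 0.1 and 1 FPKM added, and to 6.71 summed with C4a. The median log2 ratio of the activating members moved from 2.61 to 3.30 with at least 1 or 5 FPKM, which leaves out C3. The FPKM rules are no check of this median either. C4b reached 1 FPKM, and C1ra, C1s, C4b and Cfb reached 5 FPKM, through the IFN-gamma group alone. Over called members only, a choice made after seeing the data, the median log2 ratio was 3.77. That of the inhibitors, which is Serping1 alone, moved from 9.91 to 7.59 and 4.61 with 0.1 and 1 FPKM added. With at least 5 FPKM the classical list kept 1 of 2 rises, the membrane inhibitors 1 of 2, and the receptors 0 of 2 falls. With at least 1 FPKM the receptors had 1 fall. C4a and Cd46 reached 1 FPKM, and Clu reached 5 FPKM, through the IFN-gamma group alone. Itgb2 reached 1 FPKM through the untreated group alone. The FPKM rules are thus no check of these list counts. At q under 0.01 the lectin list had 0 falls and the receptors 1, and with at least 2-fold the lectin list had 0 falls and the membrane inhibitors 1 rise. The median log2 ratio of tested genes of at least 1 FPKM differed with transcript length, between -0.48 and 0.66 over 20 length bins, with the highest value in the bin of the longest transcripts, and the cause was not tested. Against genes of similar length the log2 ratio of C3 went from 0.43 to 0.07 and that of Cd46 from 1.02 to 0.58. Depth is unknown, so values near 0 (C1rb, Cd55, and untreated Serping1) have no known precision.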
